A study of Rattus norvegicus with 6 samples.

Results

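Fos (ENSRNOG00000008015), Jun (ENSRNOG00000026293), Egr1 (ENSRNOG00000019422) and Atf3 (ENSRNOG00000003745) are 4 immediate early genes, and they were taken by identifier from the 32623 genes of the count table. All 4 passed the filter on low counts, which left 14481 genes for testing. RNA came from full-thickness esophagus of male wild-type Sprague-Dawley rats, 8 to 10 weeks old and weighing 250 ± 20 g. The 3 control rats were untreated. The 3 injured rats had received a local friction injury from a 3D-printed device passed through the mouth to 9 to 10 cm and moved back and forth for 8 to 10 cycles of 3 to 5 s each. Tissue of both groups was collected on day 28 and frozen in liquid nitrogen, with 1 library per animal. The series concerns a model of esophageal stricture, in which scarring narrows the organ. No group in which the device was inserted without friction was analysed here, so insertion and friction cannot be told apart.

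Immediate early genes are transcribed within minutes of a stimulus, without the need for new protein. Growth factors, stretch, wounding and stress reach them through MAP kinase signalling, which acts on serum response factor, its Ets-family partners and CREB. Fos and Jun proteins pair through leucine zippers to form the transcription factor AP-1. Egr1 is a zinc finger transcription factor with GC-rich binding sites, and Atf3 is a zipper protein of the ATF/CREB family that is induced by many kinds of stress. The transcripts are short-lived, and they also rise when tissue is cut, warmed or left before freezing. The time between death and freezing is not given in the sources used here, and its part in the results was not tested.

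The promoter of Egr1 is shown because the sequence through which such genes respond to serum and growth factors can be read in it. RefSeq entries on the GRCr8 assembly held this window for 1 of the 4 genes. The 250 bases before the Egr1 start site lie at chr18:26736828-26737077, plus strand, on GRCr8, whereas the deposited counts were made on another build, Rnor_6.0. In the sequence, capitals mark CArG boxes, the binding motif of serum response factor, and the core of the cyclic AMP response element, a motif of CREB and ATF proteins.

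Egr1 promoter: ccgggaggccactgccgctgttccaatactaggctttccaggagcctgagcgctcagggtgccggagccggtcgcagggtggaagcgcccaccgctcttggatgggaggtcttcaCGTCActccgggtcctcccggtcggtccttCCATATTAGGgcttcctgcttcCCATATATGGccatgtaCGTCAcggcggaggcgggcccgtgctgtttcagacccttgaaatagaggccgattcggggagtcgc

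The window held 2 CArG boxes, CCATATTAGG at -105 to -96 and CCATATATGG at -83 to -74 from the start site. At least 1 CArG box was found in 1.5% of 33469 RefSeq promoter windows of the same length, searched on both strands. The core TGACG, which reads CGTCA on the printed strand, occurred 2 times, at -135 to -131 and at -66 to -62, and 18.2% of all windows held it. The full element TGACGTCA (1.59% of windows), the AP-1 site TGAGTCA with its reverse complement TGACTCA (4.05%), the EGR site GCGTGGGCG (0.478%) and TATAAA (12.9%) were not among the letters of this window. These matches describe the sequence, and occupancy was not measured.

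All 4 genes stood higher in every injured animal than in every control animal, and Fos and Atf3 passed the test across all genes. Fos was 23.3-fold higher and Atf3 7.22-fold higher in the injured esophagus (edgeR quasi-likelihood test, adjusted p = 0.0025 and 0.0201). Egr1 was 4.21-fold and Jun 1.68-fold higher, with adjusted p-values of 0.0651 and 0.109 by the same edgeR test, above the limit of 0.05. With the replicate number as a block, Egr1 passed (edgeR, adjusted p = 0.0331) and Jun did not (0.0759). Over all 14481 tested genes, 0.711% were called higher in injured animals (103 genes) and 0.642% lower (93 genes), 1.35% in either direction (196 genes), and 13.5% had every injured library above every control library. The block gave 287 higher and 259 lower. The median log2 fold change of all tested genes was -0.01, close to no difference. Expression is given as CPM, the count relative to the library total, scaled between libraries with the TMM factors of edgeR, which trim extreme genes.

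**Figure D1:**
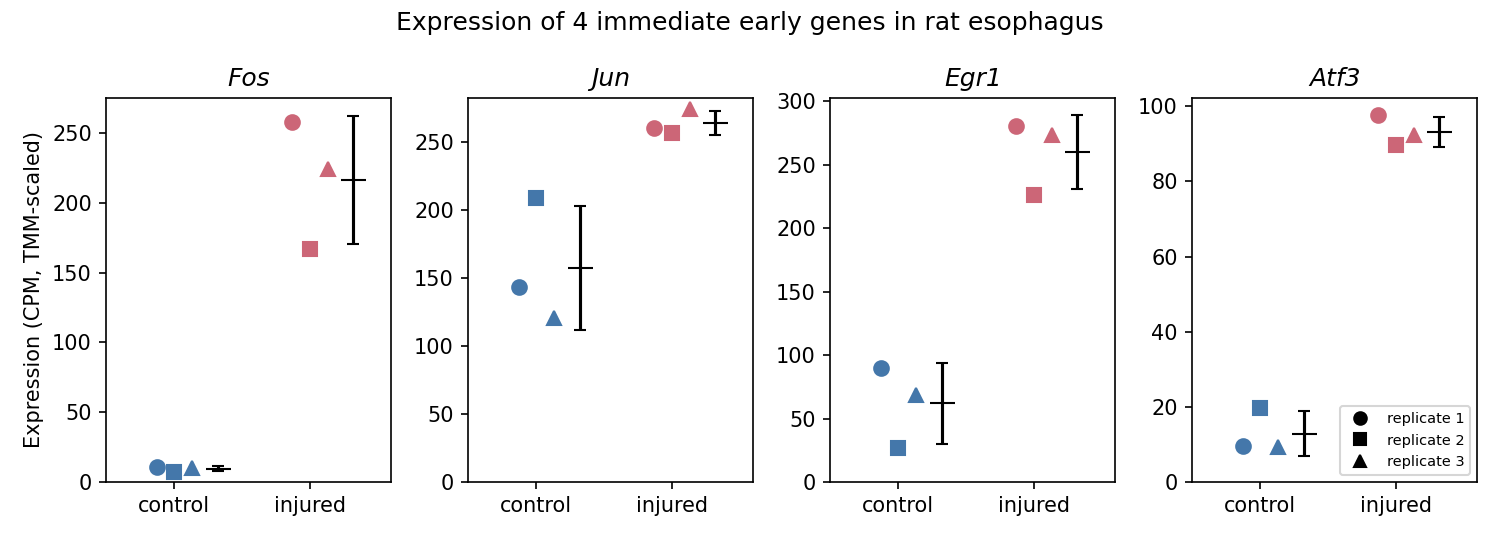
Expression of Fos, Jun, Egr1 and Atf3 in CPM (vertical axes, each starting at 0) in 3 control and 3 injured libraries, with the marker shape giving the replicate number and the bar giving mean ± SD (n = 3). The groups do not overlap in any of the 4 panels, and the gap is widest for Fos (7.26 to 10.6 CPM against 167 to 258 CPM) and narrowest for Jun.

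Fos encodes the AP-1 subunit that needs a partner such as Jun to bind DNA. Replicates 1, 2 and 3 gave 176, 130 and 139 reads in the untreated group, against 4836, 2744 and 3834 reads after injury. In CPM, the control animals stood at 10.6, 7.26 and 10.0 and the injured animals at 258, 167 and 225. Fos was thus low in each of the 3 controls and high in each of the 3 injured animals, and the lowest injured animal was 15.8-fold above the highest control. Controls averaged 9.28 ± 1.77 CPM, against 216 ± 46.1 CPM after injury (SD, n = 3 per group). The difference was 4.54 ± 0.23 on the log2 scale (standard error; edgeR, adjusted p = 0.0025). Of 14481 tested genes this was rank 2 by p-value and rank 38 by fold, and by fold it was rank 19 of the 103 genes called higher. Fos passed the test in all 15 alternative fits, with log2 fold changes of 4.40 to 4.70 and a highest adjusted p of 0.0411, without injured replicate 3.

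Atf3 acts mostly as a repressor when it pairs with itself and can pair with Jun. Replicates 1, 2 and 3 gave 159, 352 and 130 reads in the untreated group, against 1833, 1477 and 1575 reads after injury. The control animals stood at 9.54, 19.7 and 9.38 CPM, with replicate 2 about 2.10-fold above the lowest. The injured animals lay close together at 97.7, 89.7 and 92.2 CPM, and the lowest of them was 4.56-fold above the highest control. Controls averaged 12.9 ± 5.89 CPM, against 93.2 ± 4.06 CPM after injury (SD, n = 3 per group). The difference was 2.85 ± 0.31 on the log2 scale (standard error; edgeR, adjusted p = 0.0201), rank 27 of all tested genes by p-value. The call was lost in 4 of 15 alternatives, each of which left out 1 library: control replicate 3 (adjusted p = 0.0652, edgeR), injured replicate 1 (0.0523), injured replicate 2 (0.074) and injured replicate 3 (0.133).

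Relative to its level, Egr1 had the widest spread among controls of the 4 genes. Replicates 1, 2 and 3 gave 1501, 479 and 954 reads in the untreated group, against 5266, 3731 and 4671 reads after injury. The controls stood at 90.1, 26.8 and 68.8 CPM, so that replicate 1 was 3.37-fold above replicate 2. The injured animals stood at 281, 227 and 274 CPM, a range of 1.24-fold, and the lowest of them was 2.52-fold above the highest control. Controls averaged 61.9 ± 32.2 CPM, against 260.2 ± 29.3 CPM after injury (SD, n = 3 per group). The difference was 2.07 ± 0.41 on the log2 scale (standard error) and did not pass (edgeR, adjusted p = 0.0651). With the replicate block it was 2.23 (edgeR, adjusted p = 0.0331). Egr1 also passed with DESeq2, both on all genes with a count (adjusted p = 8.4e-06) and on the genes kept by the filter (1.13e-05), with no filter on low counts (0.0477, edgeR), without control replicate 1 (0.0466) and without control replicate 2 (0.0326), and adjusted p over the 15 alternatives ranged from 8.4e-06 to 0.253.

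Jun is the AP-1 subunit that can also pair with itself. Replicates 1, 2 and 3 gave 2383, 3730 and 1667 reads in the untreated group, against 4886, 4227 and 4678 reads after injury. The controls stood at 143, 208 and 120 CPM and the injured animals at 260.3, 257 and 274 CPM. Control replicate 2 came closest to the injured animals, of which the lowest was 1.23-fold above it. Controls averaged 157 ± 45.7 CPM, against 264 ± 9.09 CPM after injury (SD, n = 3 per group). The log2 fold change of 0.75, with a standard error of 0.20, did not pass (edgeR, adjusted p = 0.109). It passed in 3 of 15 alternatives, with DESeq2 on all genes with a count (log2 fold change 0.76, adjusted p = 0.0143) or on the filtered genes (0.76, adjusted p = 0.0131) and without control replicate 2 (edgeR, 1.00, adjusted p = 0.0459), and the highest adjusted p was 0.332.

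**Figure D2:**
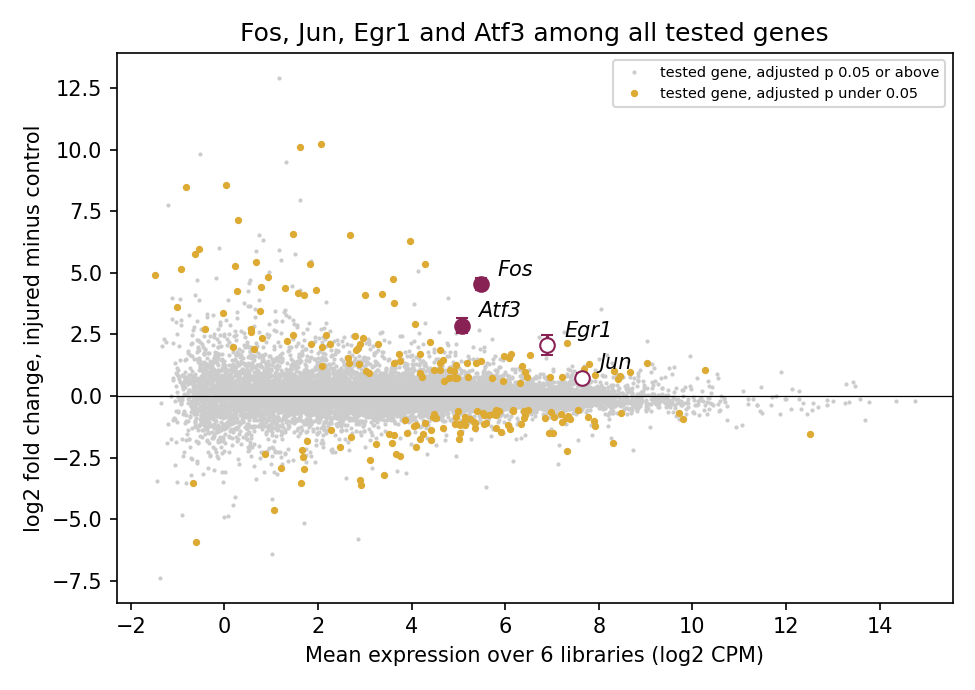
Log2 fold change, injured minus control (vertical axis), against mean expression over the 6 libraries in log2 CPM (horizontal axis) for 14481 tested genes, with the 196 called genes in yellow. Fos (4.54) and Atf3 (2.85) are filled because they were called, Egr1 (2.07) and Jun (0.75) are open because they were not, and bars are standard errors.

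**Figure D3:**
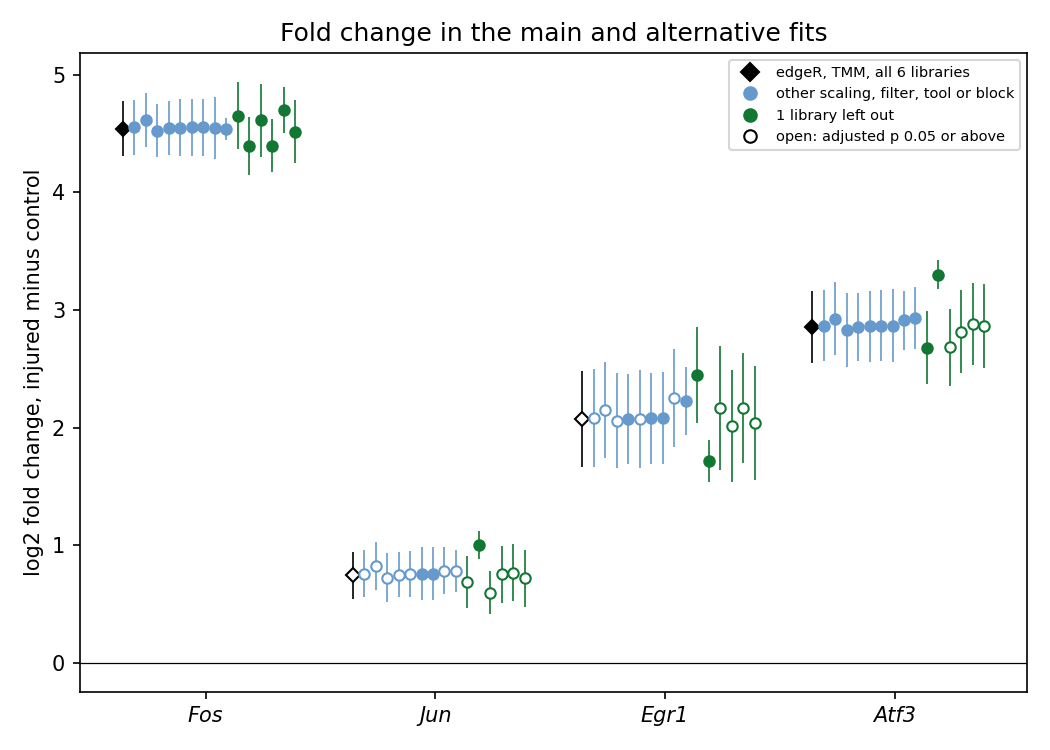
Log2 fold change with its standard error for each gene under edgeR with all 6 libraries (black), 9 other scalings, filters, tools or the replicate block (blue) and 6 fits that each left out 1 library (green), where open symbols mark an adjusted p of 0.05 or above. Of the 15 fits in blue and green, all are filled for Fos, 11 for Atf3, 6 for Egr1 and 3 for Jun, and no value falls below 0.

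The spread within groups differed between the genes and between the groups. Among controls, the SD of log2 CPM was 0.92 for Egr1, 0.60 for Atf3, 0.41 for Jun and 0.29 for Fos. Among injured animals it was 0.17 for Egr1, 0.06 for Atf3, 0.05 for Jun and 0.32 for Fos. Egr1, Atf3 and Jun therefore varied more among the untreated animals, while Fos varied by a like amount in both groups. Of all tested genes, 65.1% had the larger SD among controls, so the direction seen in 3 of these 4 genes was also the commoner one in the whole table. The difference in spread was not tested, and an exact permutation of 3 animals against 3 could not give a p below 0.1.

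Each gene was also set beside genes within a factor of 2 of its mean CPM over all 6 libraries. The control SD of Egr1 was above that of 95.5% of 1699 such genes, that of Atf3 above 91.2% of 4338, that of Jun above 83.4% of 1235 and that of Fos above 75.8% of 2459. These shares are not matched to the control level, since the mean includes the injured animals. It lay far above the control means of Fos (9.28 CPM) and Atf3 (12.9 CPM). The median control SD was 0.16 in the set of Fos and 0.17 in that of Atf3, against 0.25 over all tested genes. In injured animals the share of the same sets with a smaller SD was 91.1% for Fos and 73.7% for Egr1, but 18.7% for Atf3 and 16.4% for Jun. Atf3 and Jun were thus steadier across the 3 injured animals than most genes of a similar mean over both groups. For Atf3 that mean lay below its injured level of 93.2 CPM. Against all tested genes, the control SD was above that of 91% for Egr1, 81.5% for Atf3, 68.9% for Jun and 55.7% for Fos. On that measure Fos stood near the middle in controls. In injured animals the share was 72.4% for Fos, 45.3% for Egr1, 11.3% for Atf3 and 7.5% for Jun. Counting error was small beside these spreads for Egr1 in controls, where the lowest count of 479 gives a relative error of 4.57% against a coefficient of variation of 52.1% between animals. The lowest count of Fos, 130, gives 8.77% against 19.1% between controls. Among injured animals, the highest count of Atf3, 1833, gives 2.34% against 4.36% between animals, and that of Jun, 4886, gives 1.43% against 3.45%. Counting error was thus not small beside the low spreads of Atf3 and Jun after injury.

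**Figure D4:**
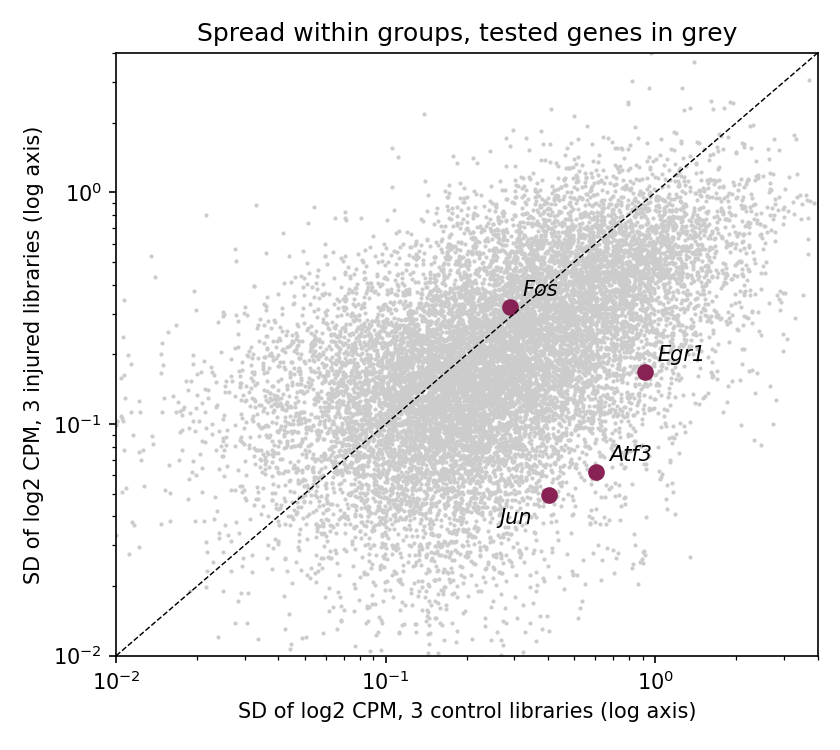
SD of log2 CPM among the 3 injured libraries (vertical, log axis) against that among the 3 control libraries (horizontal, log axis) for the tested genes in grey and the 4 immediate early genes in purple, with equality dashed and 68 genes beyond the axes not drawn. Egr1, Atf3 and Jun lie below the dashed line and Fos lies just above it.

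Control replicate 2 was high for one pair of the genes and low for the other. It had the highest control level of Jun (0.44 above the control mean in log2 CPM) and of Atf3 (0.70 above), and the lowest control level of Fos (0.33 below) and Egr1 (1.03 below). Without it, Egr1 had a log2 fold change of 1.72 and Jun of 1.00, and both passed the test (edgeR, adjusted p = 0.0326 and 0.0459). In injured animals replicate 2 was again the lowest for Fos (0.35 below the injured mean) and Egr1 (0.19 below), while Jun and Atf3 deviated by at most 0.07 in any injured animal.

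Fos and Egr1 placed the 6 libraries in the same order, from injured replicates 1, 3 and 2 to control replicates 1, 3 and 2 (Spearman's rho 1, Pearson's r 0.93 of log2 CPM). Jun and Atf3 followed each other with a Pearson's r of 0.95, and the lowest r of the 6 pairs was 0.59, between Jun and Egr1. With each library set against its own group mean, the deviations of both groups together gave r = 0.79 for Fos and Egr1 and 0.94 for Jun and Atf3. The other 4 pairs gave r from -0.94 to -0.56, so their positive values above rest on the difference between the groups. These r values lean on 1 library, since control replicate 2 had the largest deviation of Egr1 (-1.035), Atf3 (0.698) and Jun (0.445). Among injured animals, replicate 2 was the lowest for all 4 genes, so opposed pairs were not seen there. The highest injured animal differed between Jun (replicate 3, 0.056) and Atf3 (replicate 1, 0.068), so the likeness of their deviations came mainly from the controls. These are descriptions over 6 libraries that share the difference between the groups and the scaling, and they carry no test. Among 10955 genes averaging 5 CPM or more, the genes ranked between 40 and 2587 in likeness to each other. The closest was Atf3 to Jun (rank 40) and the farthest Jun to Egr1 (rank 2587), so none was the nearest gene of another.

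The gene most like Fos over the 6 libraries was ENSRNOG00000046667, with a Pearson's r of 0.9988 in log2 CPM. Its symbol is not paired with its identifier in the tables used here. Replicates 1, 2 and 3 gave 14, 8 and 8 reads in the untreated group, against 1238, 753 and 1057 reads after injury, or 0.621 ± 0.200 CPM against 57.9 ± 10.7 CPM (SD, n = 3 per group). The difference was 6.53 ± 0.28 on the log2 scale (standard error; edgeR, adjusted p = 0.00133), the smallest p of all tested genes. The gene most like Egr1 was ENSRNOG00000013538 (r = 0.9982), at 89.8, 67.3 and 82.9 CPM in controls, against 111, 106 and 112 CPM after injury. It repeated the order of Egr1 among controls with a far smaller difference between the groups, a log2 fold change of 0.45 that did not pass (edgeR, adjusted p = 0.111). Both were picked for their likeness, so their differences are no separate evidence.

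The ratio of 2 genes within a library does not depend on how libraries are scaled to each other. Reads of Fos per read of Jun were 0.0739, 0.0349 and 0.0834 in controls, against 0.990, 0.649 and 0.820 after injury (replicates 1, 2 and 3). The ratio was thus higher in every injured library, on average by 13.5-fold. Fos per read of Egr1 was 0.117, 0.271 and 0.146 in controls, against 0.918, 0.735 and 0.821 after injury, and Fos per read of Atf3 was 1.11, 0.369 and 1.07 against 2.64, 1.86 and 2.43. Fos therefore gained on each of the other genes in every injured library, although gene length keeps these ratios from being ratios of molecules.

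Among the other genes the ratios moved with their folds. Jun per read of Atf3 was 15.0, 10.6 and 12.8 in controls, against 2.67, 2.86 and 2.97 after injury, and the groups were apart. Jun per read of Egr1 was 1.59, 7.79 and 1.75 in controls, against 0.928, 1.13 and 1.00 after injury, also without overlap. Egr1 per read of Atf3 was 9.44, 1.36 and 7.34 in controls, against 2.87, 2.53 and 2.97 after injury, and the groups overlapped, with control replicate 2 below the injured libraries. In 5 of the 6 ratios the groups did not overlap. The 6 ratios share genes, so they are not independent of each other and follow from the unequal folds. How often the groups are apart in pairs of other genes was not counted, so the 5 cannot be called unusual. The ratios are given as descriptions, without a test.

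**Figure D5:**
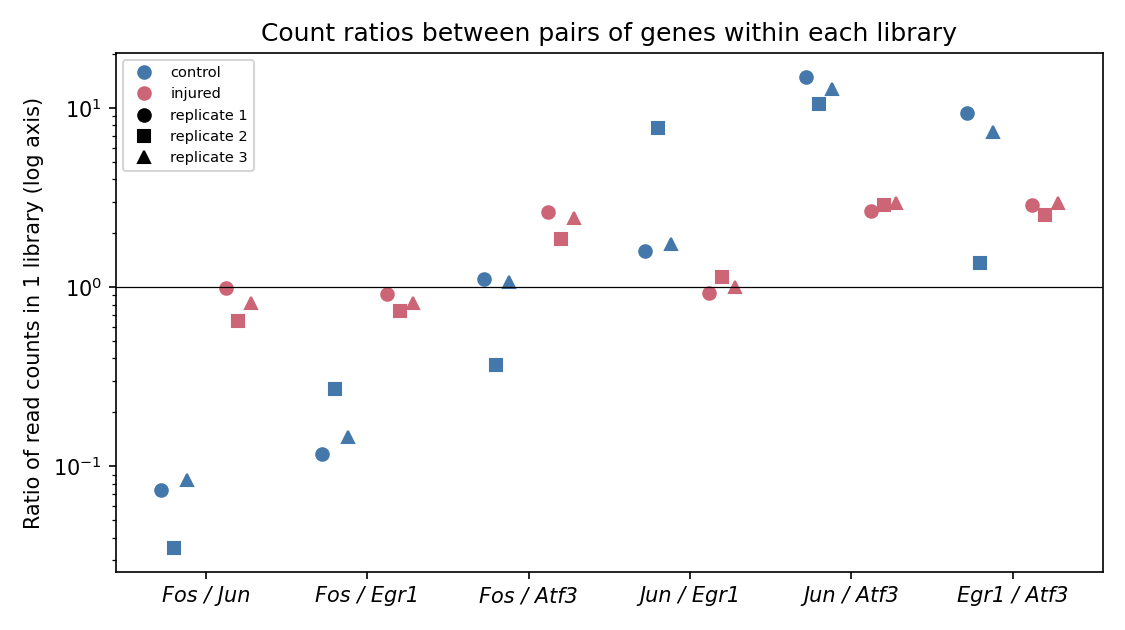
Ratio of read counts between each pair of the 4 genes within a library (vertical log axis, with a line at 1), control in blue, injured in red, and the marker shape giving the replicate number. Control and injured libraries are apart in 5 of the 6 pairs, and in Egr1 over Atf3 control replicate 2 (1.36) lies below the injured libraries while the other controls lie above them.

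Some properties of the libraries moved with the groups, and their part in the results was not tested. Total counts overlapped, at 14181903 to 18263608 in controls and 15949379 to 18376578 after injury. Control libraries detected 17381 to 17687 genes, and injured libraries 17745 to 17907. The TMM factors were 0.963 to 0.981 in controls and 1.02 to 1.03 after injury, and scaling by library size alone left the call of each of the 4 genes as it was. The 10 most abundant genes took 14.7% to 16.6% of control counts and 13.8% to 15.2% of counts after injury. Full-thickness esophagus holds epithelium, connective tissue, muscle, vessels, nerves and immune cells, and in such bulk tissue a change in RNA per cell and a change in the number of cells of a type cannot be told apart. Markers of these tissues and cells, and other genes of the pathway, were not analysed here, because the tables used pair no Ensembl identifier with a symbol.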

How the data were processed

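The authors deposited raw whole-number counts per Ensembl rat gene, 1 column per library, with no normalization. The submitters' processing notes name HISAT2 2.2.1, HTSeq 0.6.1, fastp 0.24.1, DESeq2 1.50.2, bcl2fastq 2.20.0.422 and the build Rnor_6.0. What each tool did, how strand and multi-mapped reads were handled and which gene annotation was used is not given in the sources used here, so reads of overlapping antisense genes cannot be told apart. Libraries were read as 150-base pairs, per the labels' protocols.

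Groups and replicate numbers came from the sample titles. Genes were filtered with filterByExpr (minimum count 10, minimum total 15) and scaled by TMM. Injured was compared with control over all genes by the quasi-likelihood F test of edgeR 4.0.16 in R 4.3.3, group as the only term, with Benjamini-Hochberg adjustment and calls at an adjusted p under 0.05. Standard errors are the absolute log2 fold change over the square root of F, and log2 CPM used a prior count of 2. Alternatives were RLE, upper-quartile and library-size scaling, no filter, 1 CPM in 3 libraries, DESeq2 1.42.0 on all genes with a count and, added after seeing the data, on the filtered genes, limma-voom 3.58.1, the replicate block and leaving out each library.

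Deviations of same-numbered control and injured libraries from their group means correlated across genes at 0.366, 0.365 and 0.104 for numbers 1 to 3, each over 0.1, the limit for treating numbers as pairs. Libraries of different numbers were not compared in this way, so these values cannot show that the numbers are pairs. Any pairing would come from the data alone, since the labels describe separate animals and do not say what a number stands for. For that reason the main fit left the numbers out, and the replicate block, with which Egr1 passed, is given as an alternative. Libraries of a group differed by far more than sampling noise (smallest chi-square 16 per degree of freedom), so each was counted once.

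The 4 genes and the lists were chosen with earlier results of these data known. Symbols of the 4 genes come from the definition of the set. The reference table of 47357 genes held 0 Ensembl identifiers, so the lists of related genes and cell type markers could not be applied. The rule for named genes gave these 4 and, with no symbols, the 2 identifiers most like any of them among genes of at least 5 CPM on average.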

Additional observations from a re-analysis of the deposited data

How the results depend on the processing

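The direction stayed the same for Fos, Jun, Egr1 and Atf3 in all 15 alternatives, and Fos also kept its call. The log2 fold change of Egr1 passed at 2.08 with no filter, 2.08 with DESeq2 (on all genes with a count or on the filtered genes) and 2.23 with the replicate block, and that of Jun passed at 0.76 with both DESeq2 fits. The block changed no other call among the 4 genes. Leaving out 1 library gave log2 fold changes of 4.40 to 4.70 for Fos, 2.68 to 3.30 for Atf3, 1.72 to 2.45 for Egr1 and 0.60 to 1.00 for Jun. Over all genes, 103 higher and 93 lower became 756 and 641 with DESeq2 on the 20497 genes with a count, 770 and 669 with DESeq2 on the 14481 filtered genes (a fit chosen after seeing the data), 287 and 259 with the replicate block, and 55 and 69 with limma-voom. Leaving out 1 library gave 2 to 134 higher and 0 to 200 lower, with the fewest (2 and 0, and 1945 at an unadjusted edgeR p under 0.05) without injured replicate 3. Scaling by library size alone moved the share of calls that were higher from 52.6% to 65.8%. The cause of these shifts was not tested. The list alternatives were not run, for want of symbols. Ranges within groups moved by less than 1 SD under the other scalings. With 3 animals per group, a gene that missed the limit is not shown to be unchanged.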
